A study of Homo sapiens with 2 samples.

Results

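Cells build purine and pyrimidine nucleotides from small precursors by separate de novo routes, and 10 enzymes of these routes were examined in LNCaP cells after knockdown of KDM4A, which removes methyl groups from histone H3 at lysines 9 and 36. The purine route was represented by PPAT, GART, PFAS, PAICS, ADSL, ATIC and IMPDH2, and the pyrimidine route by CAD, DHODH and UMPS. The genes were chosen by name as enzymes of these routes, and every probe set that the platform annotation gave to exactly 1 gene, that gene being one of them, was used. This gave 28 probe sets, 19 for the 7 purine genes and 9 for the 3 pyrimidine genes, out of 17689 genes and 34880 probe sets with a single gene name. No filter on low values was applied here to the 44672 deposited probe sets, so all 10 genes entered the main counts of expression differences. The promoter counts and some alternative settings held fewer members, as stated there. Whether probe sets had been left out before deposit was not checked.

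LNCaP is an established human prostate carcinoma line that responds to androgen. Lentivirus from an empty pLKO.1 vector was given to the control culture, and lentivirus with a short hairpin RNA specific for KDM4A to the knockdown culture. Both were harvested 3 days after infection, and RNA was measured on Affymetrix Human Genome U133 Plus 2.0 arrays, in which a probe set is a group of short probes for a transcript. Each group had 1 array, and the control vector carried no hairpin, so an effect of this hairpin on other transcripts cannot be told apart from an effect of lower KDM4A.

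With 1 array per group no test was possible and no p-value is given. Every difference below is the knockdown value minus the control value on the log2 scale, taken for each probe set and then averaged over the probe sets of a gene. The SD printed after a mean describes how far the probe sets of that gene lie apart on these arrays and says nothing about the spread between cultures. The deposited values had been centred, so that the values of both arrays in a row sum to 0, and only their difference carries information. Signal levels are therefore lost: it is not known which of these enzymes were well above background, no level can be set against another gene's, and the labelled cell type could not be checked against the levels of its markers. In such bulk samples fewer cells of a type and less RNA per cell cannot be told apart.

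KDM4A, the target of the hairpin, was lower in the knockdown array by 2.26-fold (-1.18 ± 0.40, SD, n = 2 probe sets), in the direction of the label. Over all 17689 genes the difference had a median of 0.020 and quartiles of -0.14 and 0.18. The pooled SD between probe sets of 1 gene was 0.33 over the 8944 genes with 2 or more probe sets. This last value is the scale of probe noise and transcript isoforms on these arrays. It does not measure variation between cultures or arrays, so it cannot show whether a difference comes from the knockdown.

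The purine route starts from phosphoribosyl pyrophosphate (PRPP), on which the ring is assembled atom by atom with nitrogen from glutamine, glycine and aspartate and carbon from formyl folate, until inosine monophosphate (IMP) is reached. IMP is then turned into AMP or, through IMP dehydrogenase, into GMP. The pyrimidine route builds the ring first, from glutamine, bicarbonate and aspartate, and attaches it to PRPP only near its end to give UMP. Proliferating cells rely on both routes for RNA, DNA and sugar nucleotides, and the genes of these enzymes are known targets of the transcription factor MYC, which binds the letters CACGTG with its partner MAX.

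Start regions of the members that lie head to head with another gene (PPAT, PAICS, GART and ATIC), and of DHODH and UMPS, the lowest and highest pyrimidine genes, are shown to place the expression values beside the DNA. The sequences are from RefSeq on GRCh38.p14, not from these cells. They are given 5′ to 3′ in lower case, and capitals mark 3 motifs, each searched on both strands. The first is the MYC and MAX motif CACGTG, which reads the same on either strand. The GC box was searched as GGGCGG, and the box bound by NF-Y as CCAAT. PPAT and PAICS are transcribed away from each other, and the first sequence is the whole of the 136 bases between the closest pair of their listed starts. The second is a 20-base stretch just inside PAICS, the third the 145 bases between GART and its divergent neighbour SON, and the fourth the 86 bases between ATIC and LOC124907975, an uncharacterised gene with no value here. The last are the 200 bases before the starts of DHODH and UMPS.
PPAT-PAICS (chr4:56435616-56435751, + strand): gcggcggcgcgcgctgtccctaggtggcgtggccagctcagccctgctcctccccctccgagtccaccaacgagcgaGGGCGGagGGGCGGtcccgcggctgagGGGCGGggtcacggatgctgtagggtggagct
PAICS start (chr4:56435782-56435801, + strand): gtatttgctgCACGTGgaaa
GART-SON (chr21:33542893-33543037, - strand): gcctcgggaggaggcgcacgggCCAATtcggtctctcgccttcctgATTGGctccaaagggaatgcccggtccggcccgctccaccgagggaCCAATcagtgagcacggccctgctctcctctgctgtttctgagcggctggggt
ATIC (chr2:215311973-215312058, + strand): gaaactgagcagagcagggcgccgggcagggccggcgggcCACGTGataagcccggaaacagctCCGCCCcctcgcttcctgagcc
DHODH (chr16:72008544-72008743, + strand): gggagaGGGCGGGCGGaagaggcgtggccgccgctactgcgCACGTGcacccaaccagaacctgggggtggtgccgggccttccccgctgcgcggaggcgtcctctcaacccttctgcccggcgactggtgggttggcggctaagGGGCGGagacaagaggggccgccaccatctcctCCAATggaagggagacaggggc
UMPS (chr3:124730252-124730451, + strand): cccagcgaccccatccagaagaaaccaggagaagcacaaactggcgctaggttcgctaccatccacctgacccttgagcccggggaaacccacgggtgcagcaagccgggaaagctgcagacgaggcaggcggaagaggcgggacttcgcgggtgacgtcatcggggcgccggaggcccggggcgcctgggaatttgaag

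The table held 12 promoter windows of 300 bases for 8 of the 10 members. CACGTG was found in 4 of these 12 windows, those of PPAT, PAICS, ATIC and DHODH, and in 7.26% of all 35116 windows. The matches of PPAT and PAICS are the same site, seen from either gene. GGGCGG was found in 8 of the 12 windows and in 45.0% of all, and CCAAT in 5 of the 12 and in 34.6% of all. The GGGCGG windows belong to 7 genes, and the PPAT matches are the same sites as those in a PAICS window. The CCAAT windows belong to only 3 genes, CAD, DHODH and GART, and a pair of the GART windows start 3 bases apart and hold the same sites. In DHODH a pair of GGGCGG matches overlap each other. The window of UMPS held none of the 3 motifs. A match is a run of letters and no evidence of binding, and a window without one says nothing about a factor.

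All 7 purine genes lay below 0 as means over their probe sets, and so did 2 of the 3 pyrimidine genes, so that 9 of 10 members were lower in the knockdown array by some amount, against 46.3% of all genes. UMPS alone lay above 0, as did 53.7% of all genes. The amounts were small. No member reached the 2-fold rule in either direction, which 1.44% of all genes passed as lower and 1.16% as higher. IMPDH2 alone passed a 1.5-fold rule, as lower, which 4.38% of all genes did; none was 1.5-fold higher, against 4.30%. The median of the 10 members was -0.27; it was -0.11 over their 28 probe sets taken singly, and -0.040 over the 6 members with a probe set that the annotation ties to a RefSeq mRNA accession. By probe set, 20 of 28 lay below 0, against 46.7% of all probe sets with 1 gene.

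**Figure D1:**
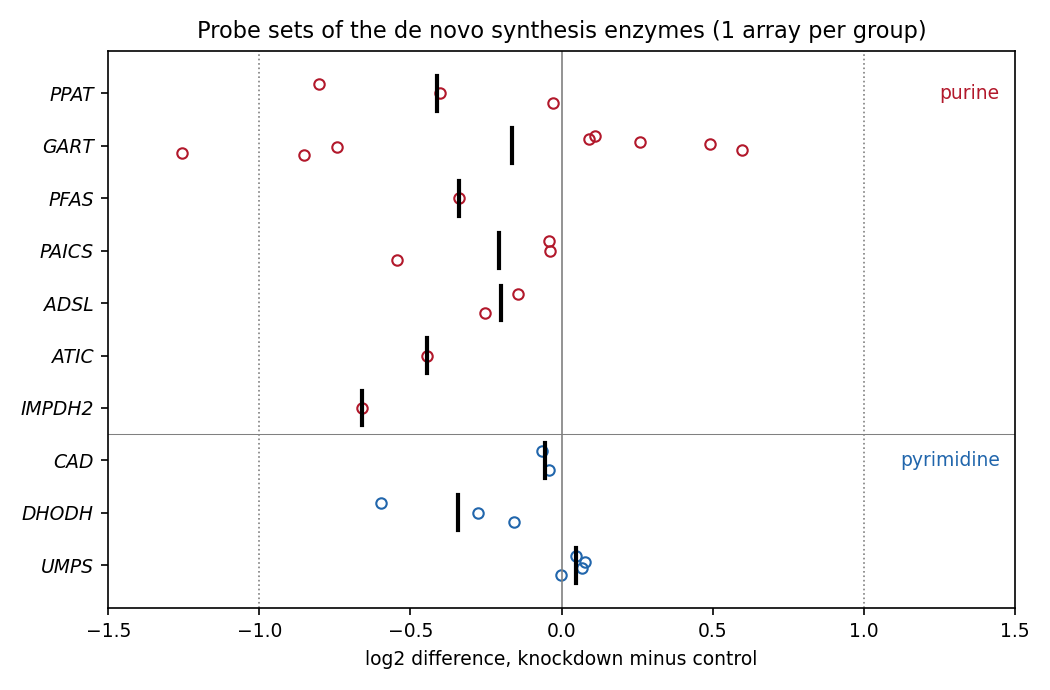
Log2 difference (knockdown minus control, x axis) of each of the 28 probe sets (open circles) of the 10 enzymes (rows, in pathway order), with the mean per gene as a black bar and dotted lines at 2-fold. PPAT, PAICS, ADSL, CAD and DHODH have all their probe sets below 0, GART has 3 below and 5 above, and the UMPS probe sets lie between -0.0021 and 0.076.

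PPAT, the amidotransferase that commits PRPP to the purine route, had centred values of 0.402, 0.202 and 0.0148 on the control array for its 3 probe sets, and the same values with the sign turned on the knockdown array. The differences were therefore -0.80, -0.40 and -0.030, with a mean of -0.41 ± 0.39 (SD, n = 3 probe sets), or 1.33-fold lower. All 3 lay below 0, but the third was close to it, and the mean ran from -0.60 to -0.22 when each probe set was left out in turn. Of all genes, 7.86% had a lower difference than PPAT.

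GART, a trifunctional enzyme that adds glycine, a formyl group and closes the first ring, had the widest spread of the members. Its 8 probe sets fell into 5 above 0, from 0.090 to 0.60, and 3 below 0, from -1.26 to -0.74, with a gap of 0.83 between the groups. The mean was -0.16 ± 0.69 (SD, n = 8 probe sets), while the median over probe sets was 0.10, so that GART had no settled direction on these arrays. The lowest of them was the only member probe set to pass 2-fold. The GART probe set that the annotation ties to a RefSeq mRNA accession lay above 0, at 0.090. GART is counted among the 9 members below 0 on its mean alone; by the median over probe sets 8 of 10 members lay below 0.

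PFAS, the synthase that brings in a further glutamine nitrogen, was read by a single probe set, at 0.170 on the control array and -0.170 on the knockdown array. Its difference was -0.34, or 1.27-fold lower, with no spread between probe sets of its own.

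PAICS, a bifunctional carboxylase and synthetase, had 3 probe sets at -0.041, -0.038 and -0.54, with a mean of -0.21 ± 0.29 (SD, n = 3 probe sets). A pair of its probe sets thus lay close to 0, and without the lowest the mean was -0.040. PAICS shares its start region with PPAT, as the first sequence shows, and the 2 genes' means lay on the same side of 0 and differed by less than the SD between the probe sets of either. The neighbour across the GART start, SON, a nuclear speckle protein, lay at -0.12 ± 0.22 (SD, n = 5 probe sets), which is also within its spread of 0.

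ADSL, a lyase that acts both on the way to IMP and on the way from IMP to AMP, had 2 probe sets at -0.15 and -0.25 and a mean of -0.20 ± 0.077 (SD, n = 2 probe sets). Its spread was smaller than its distance from 0. ATIC, the bifunctional enzyme that adds the last formyl group and closes the ring to IMP, was read by 1 probe set, at 0.222 on the control array and -0.222 on the knockdown array. The difference of -0.44, or 1.36-fold lower, was below those of all but 7.02% of genes.

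IMPDH2, the dehydrogenase that limits the flow from IMP to GTP, was the lowest member. Its single probe set read 0.331 on the control array and -0.331 on the knockdown array, a difference of -0.66 or 1.58-fold lower, and 3.39% of genes lay lower. Its paralog IMPDH1, which catalyses the same reaction, lay at -0.10, also on 1 probe set. The distance between the paralogs, each on 1 probe set, has no measured error. GMPS, which turns the IMPDH product into GMP, lay at -0.052 ± 0.23 (SD, n = 3 probe sets).

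The pyrimidine genes were closer to 0, with DHODH as the exception. CAD, a single protein with the first 3 activities of the route, had 2 probe sets at -0.066 and -0.042 and a mean of -0.054 ± 0.017 (SD, n = 2 probe sets). This is a 1.04-fold difference, and 37.5% of genes lay lower. UMPS, which makes UMP from orotate in its last steps, was the only member above 0. Its 4 probe sets read 0.049, 0.076, 0.067 and -0.0021, with a mean of 0.047 ± 0.035 (SD, n = 4 probe sets), near the middle of all genes, of which 54.7% lay lower.

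DHODH, the mitochondrial inner membrane enzyme that oxidises dihydroorotate and passes the electrons to ubiquinone, had 3 probe sets at -0.60, -0.27 and -0.16. All lay below 0, with a mean of -0.34 ± 0.23 (SD, n = 3 probe sets), or 1.27-fold lower. Of the 3 pyrimidine genes it lay nearest to the purine ones, at about the value of PFAS, and 10.2% of genes lay lower.

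In order of their means the members ran from IMPDH2 (-0.66) over ATIC (-0.44), PPAT (-0.41), DHODH (-0.34), PFAS (-0.34), PAICS (-0.21), ADSL (-0.20) and GART (-0.16) to CAD (-0.054) and UMPS (0.047). No neighbours in this order were farther apart than the pooled SD between probe sets. PPAT, PAICS, ADSL, CAD and DHODH, which are 5 of the 7 members read more than once, lay below 0 on every probe set, as did 21.6% of all genes read more than once. No member lay above 0 on every probe set, against 28.7% of those genes. IMPDH2, ATIC and PFAS, which held 3 of the 5 lowest places, rest on 1 probe set each.

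**Figure D2:**
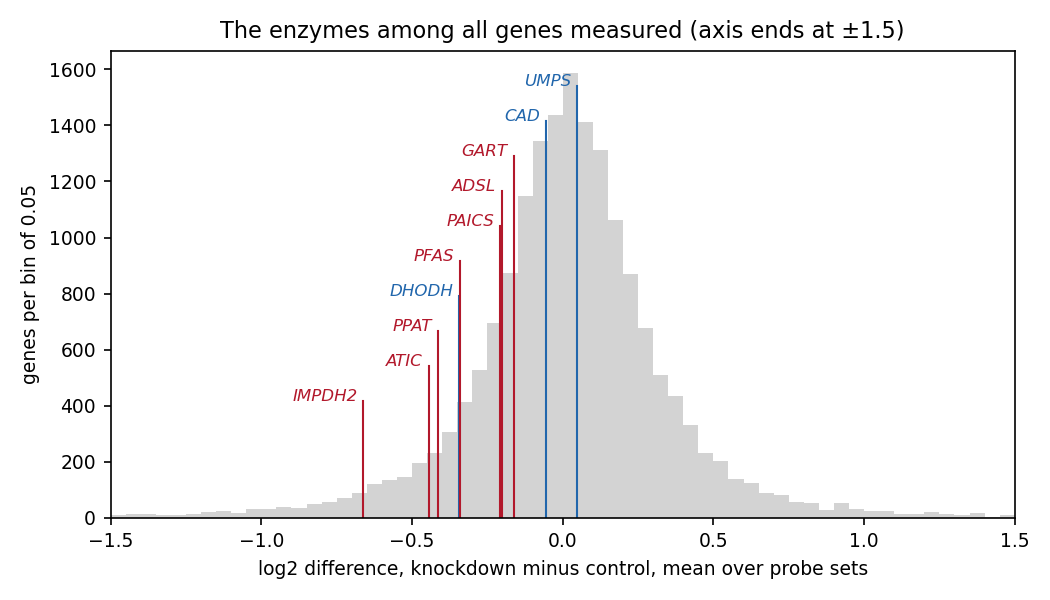
Histogram of the log2 difference (knockdown minus control, mean over probe sets, x axis) of all 17689 genes, in bins of 0.05, with the 7 purine (red) and 3 pyrimidine (blue) enzymes as lines whose heights only separate the names. The axis ends at 1.5 on either side, so genes beyond it are not drawn. The enzymes lie between -0.66 and 0.047, and all but CAD and UMPS lie below the lower quartile of all genes, -0.14.

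Set against each other, the purine route had a median of -0.34 over 7 genes and the pyrimidine route a median of -0.054 over 3, a distance of -0.29 that has no replicate error. The means were -0.35 ± 0.18 (SD, n = 7 genes) and -0.12 ± 0.20 (SD, n = 3 genes). The ranges overlapped, since DHODH lay below 4 of the 7 purine genes. The purine median was the value of PFAS, read by 1 probe set, and the pyrimidine median was that of CAD. Over the 4 purine genes with 2 or more probe sets the purine median was -0.20, and the distance to the pyrimidine median was then -0.15. Where only probe sets that the annotation ties to a RefSeq mRNA accession were used, which left 6 members, the purine median was -0.092 over 4 genes and the pyrimidine median 0.017 over 2. On these probe sets GART read 0.090, PAICS -0.038, ADSL -0.15, IMPDH2 -0.66, CAD -0.042 and UMPS 0.076. Both of these last settings were chosen after the values had been seen.

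The widely expressed synthetases that supply PRPP to both routes, PRPS1 and PRPS2, had differences of -0.68 and -1.11, against -0.66 for IMPDH2, the lowest member. PRPS2, a PRPP synthetase, was 2.16-fold lower (-1.11 ± 0.42, SD, n = 2 probe sets), with probe sets at -1.41 and -0.82. PRPS1 was 1.60-fold lower (-0.68 ± 0.15, SD, n = 2 probe sets). The synthetase-associated proteins, which are thought to restrain the enzyme, lay at -0.11 ± 0.32 over 2 probe sets for PRPSAP1 and at 0.32 for PRPSAP2. Over all 5 measured genes of PRPP supply the median was -0.11. Of these, 3 lay below 0 and 1 was at least 2-fold lower, against 46.3% and 1.44% of all genes. The same shares, and 1.16% for 2-fold higher, apply beside the counts of the lists below. All lists were chosen with earlier results of these data known.

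Genes that supply the formyl carbon and glycine lay lower too. Of 11 measured genes of serine and folate metabolism 9 lay below 0, against 46.3% of all genes. In this list 1 gene was at least 2-fold lower, against 1.44% of all. The median of the 11 was -0.37, and it was -0.17 when each gene was taken as the median over its probe sets. The gene past 2-fold was MTHFD2, a mitochondrial folate dehydrogenase (-1.03 ± 0.050, SD, n = 2 probe sets). PSAT1 and PHGDH, of serine synthesis, lay at -0.90 ± 0.047 (SD, n = 2 probe sets) and -0.84, and SHMT2, which makes glycine from serine in mitochondria, at -0.69 ± 0.31 (SD, n = 3 probe sets). Genes of glutamine and aspartate supply had members far out on either side, with a median of 0.0032 over 9 genes, 4 below 0 and 2 at least 2-fold lower. The mean was -0.20, and dropping probe sets ending in _s_at or _x_at, whose probes can hit several transcripts, gave a median of 0.26 over 6 genes. The glutamine transporter SLC1A5 lay at -1.15 and asparagine synthetase, ASNS, which consumes aspartate, at -1.68, while SLC25A12, a mitochondrial aspartate carrier, lay at 0.70 ± 0.085 (SD, n = 2 probe sets).

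Lists of enzymes that process the products of the members had medians near or above 0, apart from deoxynucleotide supply at -0.23. The 4 measured genes of the AMP and GMP branch beside the members all lay just below 0, between -0.10 and -0.023, with a median of -0.061. CTP synthesis and nucleotide kinases had a median of 0.14 over 15 genes, with 7 below 0, 1 at least 2-fold lower and none 2-fold higher. CTPS1, which makes CTP from UTP downstream of UMPS, lay at 0.996 on 1 probe set, just short of 2-fold higher. CMPK1, the kinase that phosphorylates UMP and CMP, lay at -1.29 ± 1.06 (SD, n = 2 probe sets), with probe sets at -2.03 and -0.54.

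Salvage rebuilds nucleotides from free bases and nucleosides. Purine salvage had a median of 0.11 over 6 genes, 3 of them below 0 and none 2-fold apart. It was 0.34 when probe sets ending in _s_at or _x_at were dropped, which left 3 genes. HPRT1, which salvages hypoxanthine and guanine, lay at 0.40 on 1 probe set. DGUOK lay at 0.42 ± 0.45 (SD, n = 3 probe sets), and PNP lay on the other side of 0, at -0.38 on 1 probe set. Pyrimidine salvage had a median of 0.020 over 8 genes, with 4 below 0 and 1 at least 2-fold lower. That was TK1, the thymidine kinase of S phase (-1.37 ± 0.42, SD, n = 2 probe sets), while UCK1, a uridine kinase, lay at 0.34 ± 0.034 (SD, n = 2 probe sets). Nucleoside transporters had a median of 0.096 over 7 genes, 1 of them below 0 and none 2-fold apart.

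Purine breakdown had the highest median of the nucleotide lists, 0.27 over 10 genes, with 3 below 0. XDH, which oxidises hypoxanthine to uric acid, was 2-fold higher or more, at 1.13 ± 1.02 (SD, n = 2 probe sets), with probe sets at 0.41 and 1.85. ADA2, an adenosine deaminase, lay at 0.61 and AMPD2, an AMP deaminase, at 0.56, each on 1 probe set. Pyrimidine breakdown had a median of -0.065 over 5 genes, 3 below 0 and none 2-fold apart.

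**Figure D3:**
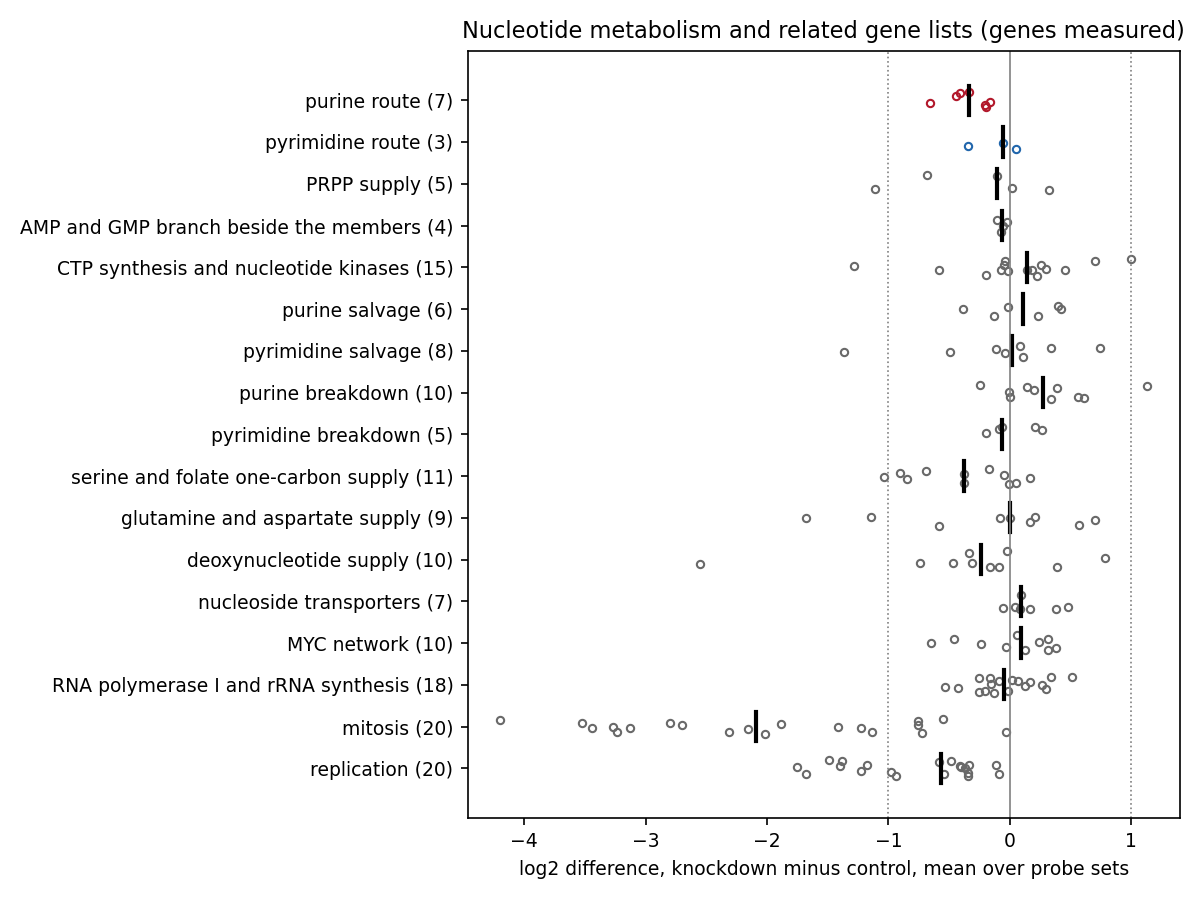
Log2 difference (knockdown minus control, mean over probe sets, x axis) of each gene (open circles) in the purine and pyrimidine routes and in 15 related lists (rows, genes measured in brackets), with the median of each list as a black bar and dotted lines at 2-fold. The purine route and serine and folate supply have medians of -0.34 and -0.37, purine breakdown 0.27, replication -0.57 and mitosis -2.09.

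The step that follows the members in DNA synthesis, the supply of deoxynucleotides, had a median of -0.23 over 10 genes, with 8 below 0 and 1 at least 2-fold lower. RRM2, the cell-cycle subunit of ribonucleotide reductase, lay at -2.55 ± 0.80 (SD, n = 2 probe sets), its partner RRM1 at -0.74 ± 0.19 (SD, n = 2 probe sets) and the p53-inducible subunit RRM2B at 0.79. All 10 de novo enzymes lay between RRM1 and RRM2B, as did most genes: 2.72% of all genes lay lower than RRM1 and 97.8% lower than RRM2B. Genes of cell division were lower on the same knockdown array: all 20 mitosis genes lay below 0, 15 of them at least 2-fold lower, with a median of -2.09, and all 20 replication genes, 7 of them at least 2-fold lower, with a median of -0.57. Of all genes, 46.3% lay below 0 and 1.44% were at least 2-fold lower. These lists too were chosen with earlier results of these data known. The part of a lower share of dividing cells in the differences of the de novo enzymes was not tested.

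Among factors linked to these routes, MYC lay at -0.24 on 1 probe set; it was named for its role, outside the rule for named genes. The 10 measured genes of the MYC network had a median of 0.093, with 4 below 0 and none 2-fold apart. MGA and MXI1, which oppose MYC, lay at -0.65 ± 0.55 (SD, n = 4 probe sets) and -0.46. Other antagonists lay above 0, among them MXD1 at 0.32 ± 0.38 (SD, n = 3 probe sets), and, named after their values were seen, MNT at 0.24 ± 0.41 (SD, n = 2 probe sets) and MXD3 at 0.061. MLX, a further gene of the network, lay at 0.38 ± 0.26 (SD, n = 6 probe sets). MAX, the partner of MYC, lay at 0.31 ± 0.13 (SD, n = 5 probe sets), and it too was named after its value was seen. RNA polymerase I and ribosomal RNA synthesis, a large consumer of purine and pyrimidine nucleotides, had a median of -0.052 over 18 genes, with 10 below 0 and none 2-fold apart.

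Cell type markers lay on both sides of 0, and no marker gene of any list differed 2-fold. At 1.5-fold, the fibroblast markers COL1A1 (0.73 ± 0.76, SD, n = 4 probe sets) and COL3A1 (0.63 ± 0.68, SD, n = 3 probe sets) were higher, and the luminal marker TMPRSS2 (-0.76 ± 0.16, SD, n = 4 probe sets) was lower. This size was reached upwards by 4.30% of all genes and downwards by 4.38%. COL1A1 and TMPRSS2 thus lay farther from 0 than IMPDH2, the lowest member. Both lists held genes on either side of 0, and a shift of either list was not tested. Of the 5 fibroblast and smooth muscle markers 2 lay below 0, VIM at -0.35 and MYH11 at -0.22. TMPRSS2 was the only luminal marker below 0, and 6 lay above, as did 53.7% of all genes. Luminal prostate markers had a median of 0.11 over 7 genes, basal markers -0.22 over 3, fibroblast and smooth muscle markers 0.044 over 5, leukocyte markers 0.13 over 2 and markers of the HEK293T cells used to package the virus -0.010 over 3. Their levels are lost by the centring, and their part in the differences of the enzymes was not tested.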

How the data were processed

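RNA from 1 control and 1 KDM4A knockdown culture was measured on 1 array each. The authors deposited log2-scale values, made with RMA (robust multi-array averaging) per the submitters' processing notes, which name no version. The sources used here state neither log base nor centring: base 2 was taken because RMA works on that scale, and in every one of the 44672 rows both values sum to 0 within 1e-06. RMA draws the arrays to a common distribution, so a change in total RNA per cell is not seen.

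Gene names came from the platform annotation, and Entrez identifiers were matched to RefSeq symbols (34839 of 34880 probe sets with 1 gene matched). The 1619 probe sets with several genes, none of which names a member, the 8131 unnamed here and 42 AFFX probe sets were left out of gene values. A gene's value is the mean over its probe sets, and a size rule of 2-fold marks genes as lower or higher. It is not a test. Array number limits the precision.

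The members and the 22 lists (17 of nucleotide metabolism and related genes, 5 of markers) were chosen with earlier results of these data known. Named genes were the members, KDM4A, up to 4 genes per list with the largest differences, and genes head to head with a member within 1000 bases. Listed genes with no probe set of their own are not analysed here. The calculation was tested on simulated data. Python 3.11.15, numpy 2.4.6 and pandas 2.3.3 were used. Alternatives are given in the closing section.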

Additional observations from a re-analysis of the deposited data

How the results depend on the processing

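The purine route stayed below the pyrimidine route with means over genes and with probe sets as the unit. It also did under settings chosen after seeing the data: genes with 2 or more probe sets, leaving out GART, and probe sets with a RefSeq mRNA accession. Medians over probe sets, and leaving out probe sets that can match several transcripts (_s_at and _x_at), returned the same distance of -0.29. PFAS and CAD were the middle genes there too. Neither setting can change their own values, so these runs add no support. Subtracting the median difference of all probe sets moves both routes alike and cannot change their distance. The distance ran from -0.32 without GART to -0.11 with RefSeq mRNA probe sets. This last setting turned the pyrimidine median to 0.017 and left 4 of 6 members below 0. The median of all members, -0.27, was -0.040 under it and -0.11 with probe sets as the unit. Under the 1.5-fold rule 1 member was lower in place of 0 at 2-fold, and 0 passed 3-fold. GART turned to 0.10 with the median over probe sets, and PAICS moved to -0.54 without _s_at and _x_at probe sets, which also left ADSL and IMPDH2 without a value and PPAT at -0.030. Lists close to 0 changed side. Without _s_at and _x_at probe sets pyrimidine salvage lay at -0.078, pyrimidine breakdown at 0.067 and RNA polymerase I genes at 0.0035. With means over genes pyrimidine salvage lay at -0.094, pyrimidine breakdown at 0.025, glutamine and aspartate supply at -0.20 and HEK293T markers at 0.050. With the median subtracted, glutamine and aspartate supply lay at -0.011. Other lists kept their side but moved: without _s_at and _x_at probe sets purine salvage lay at 0.34 (3 genes), glutamine and aspartate supply at 0.26 (6 genes) and deoxynucleotide supply at -0.15 (7 genes), with medians over probe sets serine and folate supply lay at -0.17, and with means over genes PRPP supply lay at -0.31. The cause was not tested. Adding probe sets that name several genes gave no value, since none names a member. No replicate could be left out. No paired analysis was possible because each group has 1 array. Signal over background is lost by the centring, so dim probe sets could not be set apart.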
